A study of Homo sapiens with 24 samples.

Results

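The 10 heat shock genes described here are HSPA1A, HSPA1B, HSPA8, HSPH1, DNAJB1, BAG3, HSP90AA1, HSPB1, HSPD1 and HSPE1. They were chosen by gene symbol from the table of 48162 genes, each symbol matched 1 row, and all 10 passed the filter on low counts in every comparison. RNA was sequenced from PPC1, a prostate cancer cell line, in 4 conditions with 6 libraries each. Parental cells (UT) were left untreated and harvested on day 5, and parental cells with LCL521 (UT_LCL) received 5 μM of LCL521, a pro-drug that inhibits the lysosomal enzyme acid ceramidase, for 5 h before harvest. Polyploid giant cancer cells (PGCC) came from cultures that received a dose of 8 Gy on day 2 and were captured on a 20 micron strainer at harvest, and PGCC with LCL521 (PGCC_LCL) were made the same way and received the drug before harvest. The study's methods give the day of drug exposure as day 3, where the series description gives day 5. The paper states that PGCC were collected 3 days after irradiation, which the series places on day 2, so both can name the same day. All 4 conditions were derived from a single cell line, and only the irradiated cultures were filtered, so the effects of radiation, of time after it and of selection by size cannot be told apart.

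Heat shock proteins are molecular chaperones, which bind unfolded proteins and help them fold, refold or be degraded. The inducible members are switched on by heat shock factor 1 (HSF1), which binds heat shock elements in their promoters when unfolded protein accumulates, while constitutive members such as HSPA8 are abundant in unstressed cells. HSP70 proteins work in a cycle: J-domain proteins such as DNAJB1 deliver clients and trigger ATP hydrolysis, and nucleotide exchange factors such as HSPH1 and BAG3 release the client. HSP90 takes over partly folded clients, many of them kinases and steroid receptors. The small heat shock protein HSPB1 holds unfolded proteins in solution, and HSPD1 with its lid HSPE1 forms the folding chamber of the mitochondrial matrix.

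The promoters printed here are those in which a pair of heat shock units was found, 1 window a gene, because the heat shock element is the sequence that HSF1 binds. The sequences are from RefSeq on GRCh38.p14, run from 250 bases before to 50 after an annotated start, and are written 5′ to 3′ on the strand of the gene. Capitals mark GAANNTTC and TTCNNGAA, a pair of inverted units of the element. Each of these motifs is its own reverse complement, so both strands were searched, and matches were allowed to overlap. The table held 14 windows for the 10 genes, since DNAJB1, HSP90AA1 and HSPD1 have more than 1 annotated start.
HSPA1A promoter, chr6:31815293-31815592, plus strand: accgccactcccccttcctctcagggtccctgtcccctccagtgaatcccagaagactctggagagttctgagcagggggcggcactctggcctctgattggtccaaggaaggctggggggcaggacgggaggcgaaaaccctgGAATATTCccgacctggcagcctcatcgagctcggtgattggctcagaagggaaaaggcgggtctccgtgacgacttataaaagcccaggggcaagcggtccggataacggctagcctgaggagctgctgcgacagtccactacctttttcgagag
HSPA1B promoter, chr6:31827488-31827787, plus strand: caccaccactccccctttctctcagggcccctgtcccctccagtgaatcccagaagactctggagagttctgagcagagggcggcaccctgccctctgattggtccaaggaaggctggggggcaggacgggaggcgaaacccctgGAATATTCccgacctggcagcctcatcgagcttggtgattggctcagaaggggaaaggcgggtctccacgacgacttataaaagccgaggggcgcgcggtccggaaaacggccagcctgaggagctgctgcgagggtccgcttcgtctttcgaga
HSPA8 promoter, chr11:123062087-123062386, minus strand: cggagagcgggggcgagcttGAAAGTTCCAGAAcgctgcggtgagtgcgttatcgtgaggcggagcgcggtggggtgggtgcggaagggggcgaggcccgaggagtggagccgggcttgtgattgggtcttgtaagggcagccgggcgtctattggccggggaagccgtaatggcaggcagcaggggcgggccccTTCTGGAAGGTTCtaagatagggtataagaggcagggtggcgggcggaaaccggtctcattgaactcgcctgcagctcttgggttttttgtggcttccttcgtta
DNAJB1 promoter, chr19:14518348-14518647, minus strand: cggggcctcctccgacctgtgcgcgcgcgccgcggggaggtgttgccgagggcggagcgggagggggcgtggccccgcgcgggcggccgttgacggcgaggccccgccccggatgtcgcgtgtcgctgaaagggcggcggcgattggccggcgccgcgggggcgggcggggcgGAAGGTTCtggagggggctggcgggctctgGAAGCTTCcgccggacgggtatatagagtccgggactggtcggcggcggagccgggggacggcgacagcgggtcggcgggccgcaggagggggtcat
HSP90AA1 promoter, chr14:102086995-102087294, minus strand: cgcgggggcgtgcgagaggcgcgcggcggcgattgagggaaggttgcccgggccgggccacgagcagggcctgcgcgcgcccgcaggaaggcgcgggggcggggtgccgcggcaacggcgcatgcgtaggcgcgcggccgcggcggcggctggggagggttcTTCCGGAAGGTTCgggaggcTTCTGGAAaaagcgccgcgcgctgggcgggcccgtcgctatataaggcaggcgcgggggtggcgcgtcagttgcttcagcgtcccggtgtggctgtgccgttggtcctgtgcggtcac
HSPB1 promoter, chr7:76302423-76302722, plus strand: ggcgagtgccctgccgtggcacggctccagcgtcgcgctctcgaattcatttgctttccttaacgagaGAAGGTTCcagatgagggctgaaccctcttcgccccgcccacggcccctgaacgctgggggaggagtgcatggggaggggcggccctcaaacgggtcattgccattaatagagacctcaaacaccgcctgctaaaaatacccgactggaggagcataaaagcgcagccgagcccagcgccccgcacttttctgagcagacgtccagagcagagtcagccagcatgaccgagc
HSPD1 promoter, chr2:197499791-197500090, minus strand: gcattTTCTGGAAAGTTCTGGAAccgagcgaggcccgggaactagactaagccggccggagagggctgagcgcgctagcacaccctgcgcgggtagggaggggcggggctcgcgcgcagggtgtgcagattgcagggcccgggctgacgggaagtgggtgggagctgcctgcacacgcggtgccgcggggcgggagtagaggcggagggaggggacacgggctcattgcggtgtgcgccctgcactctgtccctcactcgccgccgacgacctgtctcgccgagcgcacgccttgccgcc

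At least 1 such pair was found in 8 of the 14 windows, which belong to 7 of the 10 genes, and in 13.5% of the 35116 promoter windows in the RefSeq table. A longer run, in which 1 more inverted unit follows either pair after NN, was found on either strand for HSPA8, HSP90AA1 and HSPD1, and in 0.49% of all windows. In HSPA8 the capitals form a stretch 55 bases before the start and a second one 230 bases before it. In HSP90AA1 the matches began 88, 83 and 68 bases before the start, and in HSPD1 they formed a continuous stretch from 245 bases before it. HSPA1A and HSPA1B carried the same 8 letters, GAATATTC, at 106 and 105 bases before their starts, and 277 of 301 aligned positions (92%) of both windows were identical. No window of HSPH1, BAG3 or HSPE1 held a pair, and theirs are not printed. The window of HSPE1 shared 204 bases with one of the windows of HSPD1, which lies head to head with it. These matches describe letters and were not tested as binding sites.

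In the deposited table, on hg19, HSPA1A (ENSG00000204389, chr6:31783291-31785717, plus strand) and HSPA1B (ENSG00000204388, chr6:31795512-31798031, plus strand) lie side by side. They share 69.9% and 68.8% of the 100-base windows of their transcripts in GENCODE 29, so reads may have been split between them or left out. HSPE1 (ENSG00000115541, chr2:198364718-198368181, plus strand) overlaps HSPD1 (ENSG00000144381, chr2:198351305-198381461, minus strand). It also overlaps, on its own strand, a second row of MOB4 that held 0 counts in every library. The sources used here give neither whether counting used strand nor how reads shared by overlapping rows were counted. The counts of HSPE1, between 261 and 835 per library, are uncertain for both reasons, and reads may have been left out. DNAJB1 (ENSG00000132002, chr19:14625582-14640582, minus strand) overlaps TECR, which had between 1343 and 3466 counts where DNAJB1 had between 1581 and 5081, and HSP90AA1 (ENSG00000080824, chr14:102547075-102606036, minus strand) overlaps WDR20. The other genes were HSPA8 (ENSG00000109971, chr11:122928197-122933938, minus strand), HSPH1 (ENSG00000120694, chr13:31710762-31736525, minus strand), BAG3 (ENSG00000151929, chr10:121410882-121437331, plus strand) and HSPB1 (ENSG00000106211, chr7:75931861-75933612, plus strand).

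The libraries held from 14835246 to 19906601 counted reads each. The first principal component held 56.2% of the variance and separated parental cells from PGCC, and the second held 18.7% and placed the 8 libraries of replicates 4 and 5, at -11.98 or below, apart from the 16 others, at 3.44 or above. Replicates 4 and 5 are present in all 4 conditions, so results are given with and without them. They were singled out in these same data, so p-values without them or in them alone are given as a description. Keratins KRT8, KRT18 and KRT19 were detected in every library, while EPCAM lay at 0.835 CPM (counts per 1000000, scaled by TMM) or below and the prostate genes KLK2, KLK3 and FOLH1 were at 0 in all 24 libraries. HOXB13, a prostate lineage factor, lay between 309 and 910.0 CPM. The 7 prostate markers, nearly all HOXB13, summed to between 564.6 and 891.8 CPM in UT and between 309.2 and 537.5 CPM in PGCC. With LCL521 the sums lay between 705.3 and 910.1 CPM in UT_LCL and between 361.1 and 530.0 CPM in PGCC_LCL. The summed level of 5 melanocyte markers reached at most 1.88 CPM, that of 4 leukocyte markers 4.39 CPM and that of 2 endothelial markers 1.36 CPM, while 4 fibroblast markers, mostly COL1A2, summed to between 50.04 and 134.4 CPM in UT and between 79.6 and 202.5 CPM in PGCC. The 5 epithelial markers summed to between 775 and 1044 CPM in UT and between 972 and 1451 CPM in PGCC. The part of these shifts in the results was not tested. As a check of the labels, CDKN1A, the cell cycle inhibitor induced by p53 after radiation, rose in PGCC by 3.74 on the log2 scale (quasi-likelihood test in edgeR, Benjamini-Hochberg adjusted p = 2.3e-06).

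Per kilobase of gene length, the 10 genes covered a wide range of levels. In parental cells HSPA8 had the highest mean, 1315 ± 698.5 CPM per kilobase (SD, n = 6), followed by HSP90AA1 at 762 ± 279, HSPD1 at 618 ± 114 and HSPB1 at 326 ± 81.8. BAG3, HSPA1B, HSPH1, DNAJB1 and HSPA1A followed at means between 114.6 and 81.0 CPM per kilobase, each within the spread of the next. HSPE1, with its uncertain counts, was lowest at 27.4 ± 13.1. In PGCC the order changed at the top: HSP90AA1 had 872 ± 72.9 CPM per kilobase and HSPA8 741 ± 222, with overlapping ranges. BAG3 went from the fifth place to the seventh, at 62.9 ± 7.42 CPM per kilobase, and the pair HSPA1B and HSPA1A lay at 36.1 ± 14.4 and 31.1 ± 13.2. In all 4 conditions the same 4 genes, HSPA8, HSP90AA1, HSPD1 and HSPB1, stood above the other 6, with no overlap between HSPB1 and the next gene.

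**Figure D1:**
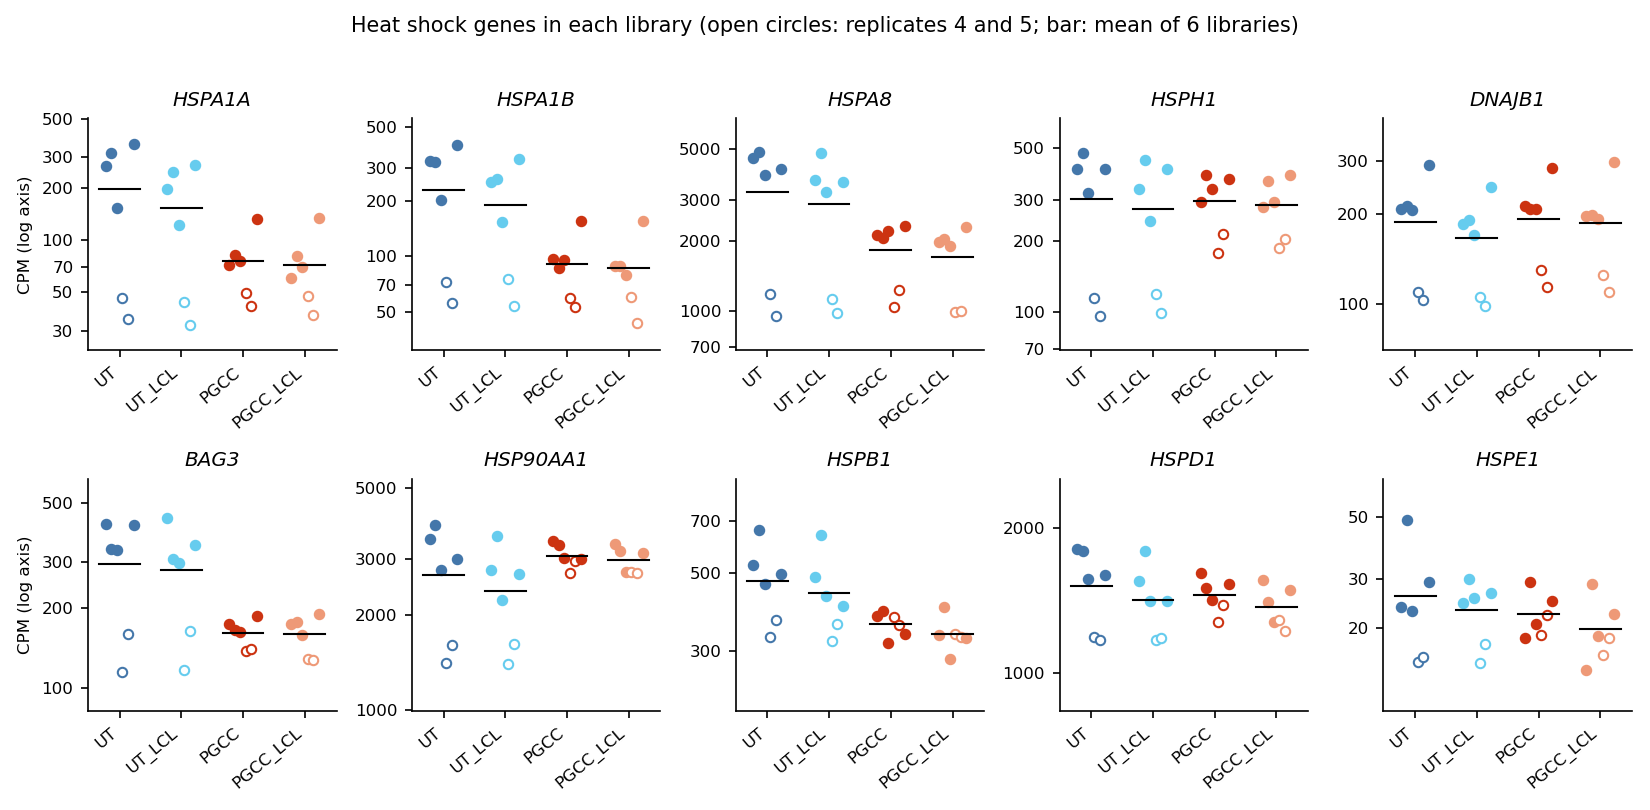
CPM of each heat shock gene (log axis) in the 24 libraries, with 1 panel a gene and 1 point a library, open circles for replicates 4 and 5 and a bar for the mean of 6 libraries. In UT and UT_LCL the open circles of every gene lie below the filled ones, and in PGCC and PGCC_LCL the filled points of HSPA1A, HSPA1B, HSPA8 and BAG3 lie closer to the open ones.

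Within parental cells 9 of the 10 genes varied more than the median gene, and HSPD1 varied less. Their coefficients of variation lay between 18.5% and 70.8% with a median of 45.4%, where the median over 12845 genes was 19.1%. In UT and in UT_LCL, both of replicates 4 and 5 lay below the other 4 libraries for 10 of 10 genes, as did 27.7% of all genes in UT and 24.8% in UT_LCL. HSPA1A, the main stress-inducible HSP70, had 46.4 and 34.9 CPM in UT replicates 4 and 5, and between 153 and 360.0 CPM in the other 4. HSPA8, the constitutive HSP70, had 1183 and 945 CPM there against 3836 to 4815 CPM, and HSPH1, the HSP110 that frees HSP70 of its nucleotide, 115.0 and 96.4 CPM against 322 to 477 CPM. The mean of the 4 other libraries exceeded that of replicates 4 and 5 by 6.75-fold for HSPA1A, 4.87-fold for HSPA1B, 4.06-fold for HSPA8 and 3.82-fold for HSPH1, and by 1.43-fold for HSPD1, the smallest gap of the 10. Replicates 4 and 5 were set apart by the second principal component of all genes, so these gaps are a description and were not tested.

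In PGCC the same gap was narrower. Both of replicates 4 and 5 lay below the other 4 libraries for 8 of the 10 genes in PGCC (21.5% of all genes) and for 6 in PGCC_LCL (24.4%). The ratio of means was 1.98 for HSPA1A, 1.75 for HSPH1, 1.24 for BAG3, 1.13 for HSP90AA1 and 0.973 for HSPB1. The median coefficient of variation of the 10 genes was 23.2% in PGCC, where the median over all genes was 13.4%.

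The comparison of PGCC with UT asked what radiation and the selection of giant cells leave behind in these genes. In the test over all 6 replicates, 4 of the 10 genes were lower in PGCC and 0 were higher, namely HSPA1A, HSPA1B, BAG3 and HSPB1 (quasi-likelihood test in edgeR, adjusted p under 0.05). Of all 13812 genes tested 24.3% were lower and 23.1% higher, 47.4% in all. The median log2 fold change of the 10 genes was -0.28, where that of all genes was -0.03. In bulk RNA, fewer cells with a transcript and less transcript per cell cannot be told apart. With the replicate number as a block, HSPA8 was also lower, which made 5 lower and 0 higher where 28.3% of all genes were lower, 27.9% higher and 56.2% in all passed. Without replicates 4 and 5 the same 5 genes were lower, where 26.9% of all genes were, and their CPM in the 4 remaining libraries of each group did not overlap, as for 25.7% of all genes in that direction. With the block and without these replicates, a fit added after the data were seen, 8 were lower, where 31.6% of all genes were. The additions were HSPH1 (-0.19, adjusted p = 0.0291), HSPD1 (-0.13, adjusted p = 0.0434) and HSPE1 (-0.35, adjusted p = 0.00688). Over all 6 replicates the groups of each of the 10 genes overlapped, whereas 13.6% of all genes lay lower and 13.5% higher without overlap. In replicates 4 and 5 alone 3 of the 10 genes, HSPH1, HSP90AA1 and HSPE1, were higher in PGCC, where 23.6% of all genes were.

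The inducible HSP70 genes showed the largest differences. HSPA1A ranged from 34.9 CPM over a median of 209.7 to 360.0 CPM in UT and from 41.7 over 73.5 to 132.6 CPM in PGCC. PGCC differed from UT by -1.35 on the log2 scale (SE, the standard error, 0.50, adjusted p = 0.038), and -0.99 with the block (adjusted p = 0.0185). The low end of UT was replicates 4 and 5, so PGCC lay below UT in 4 of 6 replicates and above it in replicates 4 and 5, by 0.10 and 0.25 on the log2 scale. Without these replicates the log2 fold change of HSPA1A was -1.57 (adjusted p = 0.000119), and in replicates 4 and 5 alone it was 0.19 (adjusted p = 0.339). HSPA1B, the near-identical neighbour, ranged from 55.8 over a median of 262.6 to 398.5 CPM in UT and from 53.3 over 90.7 to 154.7 CPM in PGCC. PGCC lay below UT in 6 of 6 replicates for this gene, 1 of 10 with the same direction throughout where 50.8% of all genes had one. The log2 fold change of HSPA1B was -1.31 (SE 0.43, adjusted p = 0.0224), -1.499 without replicates 4 and 5 and -0.16 (adjusted p = 0.364) in these replicates alone.

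HSPA8, which folds new proteins in unstressed cells, had the largest difference in CPM. It ranged from 945 over a median of 3960.0 to 4815 CPM in UT and from 1039 over 2086 to 2313 CPM in PGCC. The log2 fold change of -0.80 (SE 0.37) did not pass the test over all replicates (adjusted p = 0.0885), and it passed with the block (-0.61, adjusted p = 0.0204). Without replicates 4 and 5, the lowest UT libraries, the change was -0.97 with an SE of 0.08 (adjusted p = 5.12e-07). Leaving out the lowest UT libraries narrows the spread of UT by itself, so this p-value is a description. The 4 remaining UT libraries were all at 3836 CPM or more and the 4 PGCC libraries at 2313 CPM or less, while replicates 4 and 5 of both groups lay together between 945 and 1227 CPM.

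Of the HSP70 partners, BAG3 was lower and DNAJB1 and HSPH1 were not called. BAG3, a nucleotide exchange factor that links HSP70 clients to autophagy, ranged from 115.5 over a median of 333.9 to 414 CPM in UT and from 138 over 164 to 187 CPM in PGCC. BAG3 differed by -0.84 on the log2 scale (SE 0.26, adjusted p = 0.0157), -0.71 with the block (adjusted p = 0.0105) and -1.08 without replicates 4 and 5. The 6 PGCC libraries lay at 187 CPM or less, the level of UT replicates 4 and 5 (115.5 and 161 CPM), while the other 4 UT libraries lay at 333 CPM or more. DNAJB1, the J-domain protein that loads clients onto HSP70, ranged from 103 over a median of 206.2 to 291 CPM in UT and from 114 over 208 to 284.5 CPM in PGCC, almost the same range. The log2 fold change of DNAJB1 was 0.06, with a 95% interval from -0.50 to 0.62 (adjusted p = 0.871). HSPH1 ranged from 96.4 over a median of 364 to 477 CPM in UT and from 179 over 314 to 384.5 CPM in PGCC. Its log2 fold change was -0.01 with a 95% interval from -0.76 to 0.74 (adjusted p = 0.983). In replicates 4 and 5 alone, with only these libraries in each group, HSPH1 was higher in PGCC by 0.93 (adjusted p = 0.000459). Without these replicates the change was -0.19 and did not pass (adjusted p = 0.164).

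HSP90AA1, the stress-inducible HSP90, was not called over all replicates either. It ranged from 1407 over a median of 2877 to 3831 CPM in UT and from 2698 over 3004 to 3401 CPM in PGCC, where its 6 libraries lay close together. On the log2 scale HSP90AA1 differed by 0.22 (95% interval from -0.21 to 0.65, adjusted p = 0.393). Without replicates 4 and 5 it was -0.01 (adjusted p = 0.952), and in these replicates alone it was 0.93 (adjusted p = 0.000307). HSPB1, which holds unfolded proteins without using ATP, ranged from 329 over a median of 480.2 to 660 CPM in UT and from 316 over 365 to 390.0 CPM in PGCC. HSPB1 differed by -0.38 on the log2 scale (SE 0.14, adjusted p = 0.0329), -0.57 without replicates 4 and 5 (adjusted p = 0.000513) and 0.09 (adjusted p = 0.509) in these replicates alone.

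Neither gene of the mitochondrial pair passed the test over all replicates. HSPD1, the barrel-forming chaperonin, ranged from 1171 over a median of 1579 to 1804 CPM in UT and from 1276 over 1458 to 1609 CPM in PGCC. For HSPD1 the log2 fold change was -0.04 (SE 0.11, adjusted p = 0.794), the smallest standard error of the 10. HSPE1, the lid of the chamber, ranged from 15.2 over a median of 23.4 to 49.0 CPM in UT and from 18.5 over 21.5 to 29.3 CPM in PGCC, and differed by -0.18 on the log2 scale (SE 0.24, adjusted p = 0.564). In replicates 4 and 5 alone HSPE1 was higher in PGCC by 0.44 (adjusted p = 0.0326), and without them the change was -0.39 (adjusted p = 0.153). HSPA1A, HSPD1 and HSPE1 had PGCC below UT in each of replicates 1, 2, 3 and 6 and above it in both of replicates 4 and 5, a pattern held by 5.02% of all genes. Whether the differences between PGCC and UT themselves differ between the 2 sets of replicates was not tested.

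The calls over 6 replicates depended on replicates 1, 2, 3 and 6. Leaving out replicate 1, 2 or 3 from both groups left 0 of the 10 genes past the threshold. Of all genes 5529 of 13891, 5567 of 13865 and 5542 of 13828 then passed, against 6541 of 13812 over all replicates. Leaving out replicate 6 left HSPA1B and BAG3, where 5923 of 13781 genes passed. Leaving out replicate 5 added HSPA8, where 6129 of 13810 genes passed. The log2 fold changes stayed negative for HSPA1A (-1.46 to -1.20, adjusted p between 0.0154 and 0.117), HSPA1B (adjusted p between 0.00852 and 0.0824), BAG3 (0.00204 to 0.0562) and HSPB1 (0.00864 to 0.101).

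**Figure D2:**
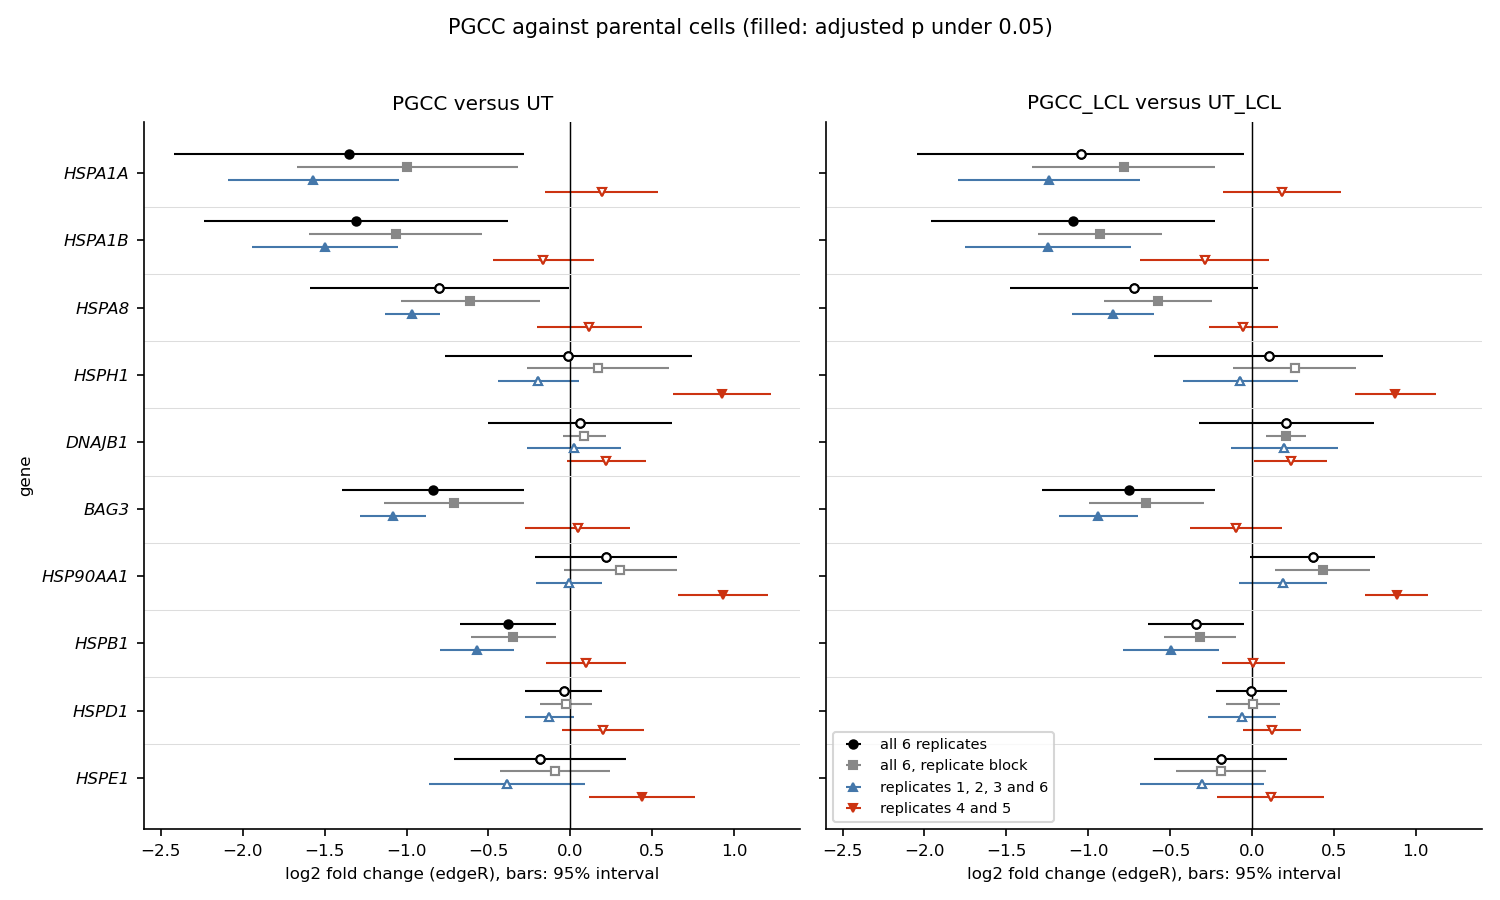
Log2 fold changes of the 10 genes with 95% intervals for PGCC against UT and for PGCC_LCL against UT_LCL, over all 6 replicates (black), with the replicate block (grey), over replicates 1, 2, 3 and 6 (blue) and over replicates 4 and 5 (red), with filled points where the adjusted p was under 0.05. For HSPA1A in PGCC against UT the black point lies at -1.35 and the red one at 0.19, and for HSPH1 and HSP90AA1 the red points lie at 0.93.

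**Figure D3:**
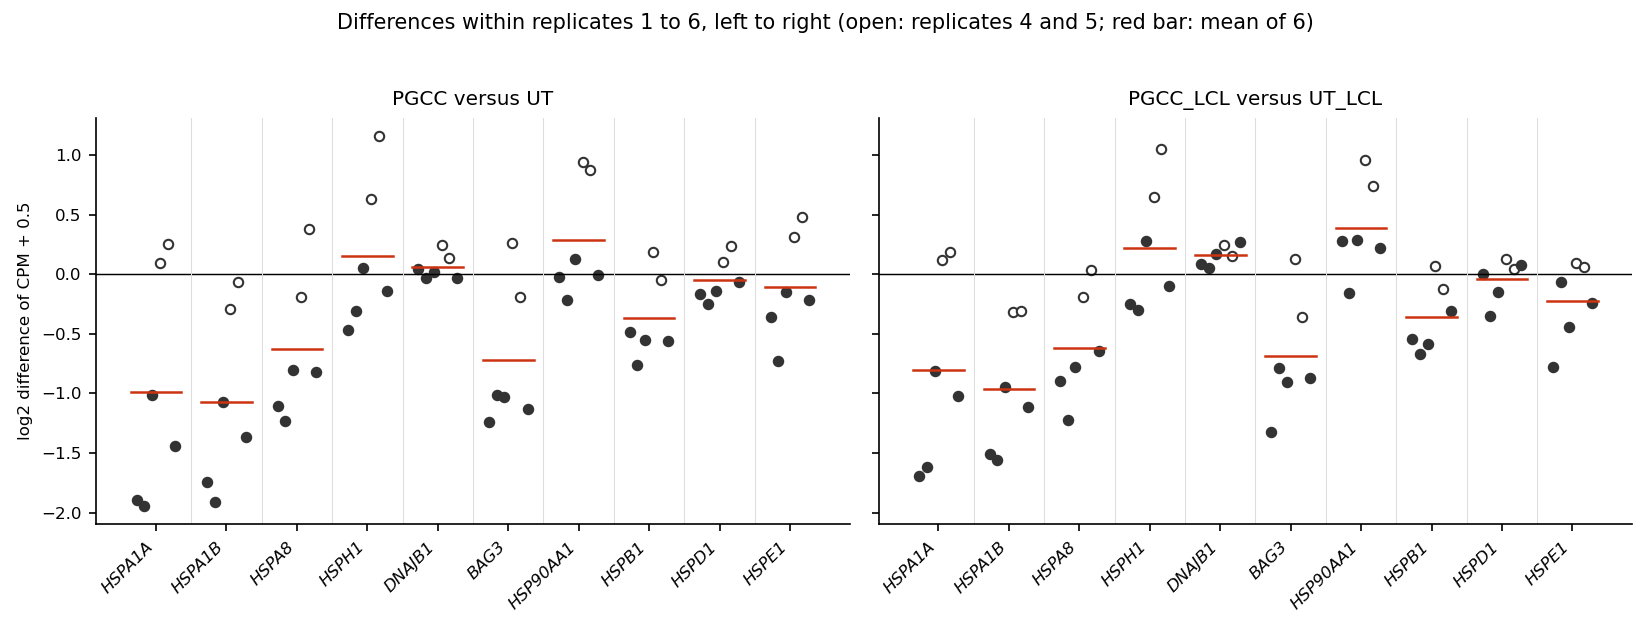
Log2 difference of CPM between PGCC and UT and between PGCC_LCL and UT_LCL for each gene, with 1 point a replicate and a pseudocount of 0.5 CPM. HSPA1B lies below 0 in all 6 replicates of both comparisons, and for HSPA1A replicates 4 and 5 lie above 0.

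The comparison of PGCC_LCL with UT_LCL repeated the contrast of populations in drug-treated cultures, with 12 libraries that the first contrast did not use but that were grown in the same 6 experiments. HSPA1B (-1.09, SE 0.40, adjusted p = 0.0371) and BAG3 (-0.75, SE 0.25, adjusted p = 0.0207) were lower in PGCC_LCL by edgeR's test, 2 of the 10 genes where 23.9% of 13818 genes were lower and 25% higher, 48.9% in all. With the replicate block 5 were lower and 2 higher, where 26.8% of all genes were lower and 29.5% higher, 56.3% in all. The added genes were HSPA1A (-0.78, adjusted p = 0.0228), HSPA8 (-0.57, adjusted p = 0.00806) and HSPB1 (-0.32, adjusted p = 0.02), all lower, and HSP90AA1 (0.43, adjusted p = 0.0174) and DNAJB1 (0.21, adjusted p = 0.00962), both higher. The median log2 fold change of the 10 genes was -0.27, where that of all genes was -0.01.

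HSPA1B ranged from 53.9 over a median of 203 to 337.5 CPM in UT_LCL and from 43.3 over 84.1 to 155 CPM in PGCC_LCL, and BAG3 from 117.5 over 302 to 439 CPM and from 128 over 167 to 190.2 CPM. HSPA8 ranged from 972.5 over a median of 3426 to 4760.0 CPM in UT_LCL and from 985.5 over 1935 to 2299 CPM in PGCC_LCL. As in the untreated cultures, the low UT_LCL libraries were replicates 4 and 5, and the groups of all 10 genes overlapped, whereas 14.6% of all genes lay lower and 13.9% higher without overlap. Without these replicates HSPA8, BAG3 and HSPB1 no longer overlapped, as for 24.4% of all genes, and 5 genes were lower where 24.6% of all genes were: HSPA1A (-1.24, adjusted p = 0.00133), HSPA1B (-1.24, adjusted p = 0.00068), HSPA8 (-0.85, adjusted p = 5.14e-05), BAG3 (-0.94, adjusted p = 1.76e-05) and HSPB1 (-0.49, adjusted p = 0.00829). In replicates 4 and 5 alone HSPH1 and HSP90AA1 were higher in PGCC_LCL, both by 0.88 (adjusted p = 8.17e-05 and 1.54e-05), where 26.3% of all genes were higher. DNAJB1 was higher in PGCC_LCL and HSPA1B lower in 6 of 6 replicates, where 50.6% of all genes had 1 direction throughout. HSPA1A and HSPE1 again lay lower in replicates 1, 2, 3 and 6 and higher in replicates 4 and 5, as did 3.41% of all genes. HSPA1B and BAG3 lost their calls when replicate 1, 2 or 3 was left out, with adjusted p up to 0.11 and 0.072. Of all genes 6031, 5831 and 5734 then passed, against 6758 over all replicates. HSP90AA1 passed without replicate 2 (adjusted p = 0.0358) and HSPB1 without replicate 4 or 5. HSPA1A (adjusted p = 0.0351) and HSPA8 (adjusted p = 0.049) passed without replicate 5. Without replicate 4 or 5 the calls over all genes were 6339 and 6261.

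The comparisons with LCL521 asked whether inhibition of acid ceramidase for a few hours moved these genes. As a check of the drug, INSIG1, a sterol-responsive gene, was higher in PGCC_LCL than in PGCC by 0.67 (adjusted p = 0.0395), and its difference of 0.77 between UT_LCL and UT passed with the replicate block (adjusted p = 0.00065) but not without it (adjusted p = 1). The paper names INSIG1 among the genes that LCL521 raised in PGCC in these same data, so its rise there is not an independent check. Between UT_LCL and UT, 0 of the 10 genes passed the test over all replicates, as did 0% of 13277 genes, with 71 genes at an unadjusted p under 0.05 and 0 called by DESeq2 or limma. With the replicate block 1648 genes had an unadjusted p under 0.05. The test without the block carried the spread between replicates, so its 0 calls do not show an absence of effect. The 10 log2 fold changes were all negative, from -0.36 to -0.07, and their 95% intervals reached from -1.71 to 0.99. The groups overlapped for 10 of 10 genes, and 0.0301% of all genes lay higher and 0% lower without overlap. For 0 of the 10 genes, and for 2.64% of all genes, UT_LCL lay below UT in replicates 1, 2, 3 and 6 and above it in both others. With the replicate block 115 genes passed, 0.866% of those tested (0.346% lower and 0.52% higher), and HSPA1A was 1 of them, lower with LCL521.

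HSPA1A ranged from 32.3 over a median of 159 to 272 CPM in UT_LCL and overlapped UT almost entirely. Between same-numbered libraries it was lower with LCL521 in 6 of 6 replicates, with log2 differences of -0.44, -0.36, -0.33, -0.09, -0.11 and -0.40 in replicates 1 to 6, where 7.89% of all genes had 1 direction in all 6. The blocked log2 fold change was -0.30 (SE 0.05, adjusted p = 0.00713, 95% interval from -0.40 to -0.20), in a fit that called 46 of 13277 genes lower. In a blocked fit without replicates 4 and 5, added after the data were seen, it was -0.37 (adjusted p = 0.0207). That fit called only 3 of 13240 genes, and HSPA1A was the only lower one (0.00755%). HSPA1B (-0.22, adjusted p = 0.0574) and DNAJB1 (-0.16, adjusted p = 0.0645) did not pass with the block and passed once gene length was also corrected for (adjusted p = 0.0307 and 0.0456, with 0.896% of all genes lower) or with DESeq2 and the block. DNAJB1 and HSPB1 also had UT_LCL below UT in 6 of 6 replicates, and HSPB1 had an adjusted p of 0.278 with the block.

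Between PGCC_LCL and PGCC, 0 of the 10 genes passed, with the replicate block or without it, where 1 of 14151 genes (0.00707%) passed without the block and 234 (1.65%) with it, 1.08% higher and 0.572% lower. DESeq2 called 6 genes and limma 0, and 218 had an unadjusted p under 0.05. The groups of all 10 genes overlapped, where 0.0919% of all genes lay higher and 0.0141% lower without overlap. The log2 fold changes of the 10 genes lay between -0.18 and -0.02, and the blocked 95% intervals between -0.32 and 0.05. HSPA1A ranged from 36.9 over a median of 64.9 to 134 CPM in PGCC_LCL, close to its range in PGCC. HSPE1 (-0.19, adjusted p = 0.11 with the block) and HSPA8 (-0.12, adjusted p = 0.116) had PGCC_LCL below PGCC in 6 of 6 replicates, and 7.91% of all genes had 1 direction throughout.

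Whether LCL521 acted differently in PGCC and in parental cells was tested as an interaction over all 24 libraries. Of the 10 genes 0 passed, as did 0% of 14555 genes, with 60 at an unadjusted p under 0.05 and 0 called by DESeq2, by limma or with the block. For HSPA1A the interaction was 0.29 (SE 0.73, 95% interval from -1.21 to 1.79), 0.22 with the block (95% interval from -0.55 to 0.98), and 0.21 with a block within each population (SE 0.06, adjusted p = 1). In this last fit the 95% interval of HSPA1A lay above 0. There 1 of the 10 genes and 561 of 14555 genes had an unadjusted p under 0.05 (quasi-likelihood test in edgeR), and 0 genes passed after adjustment. The call of HSPA1A in parental cells and its absence in PGCC was thus not shown to be a difference between them.

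**Figure D4:**
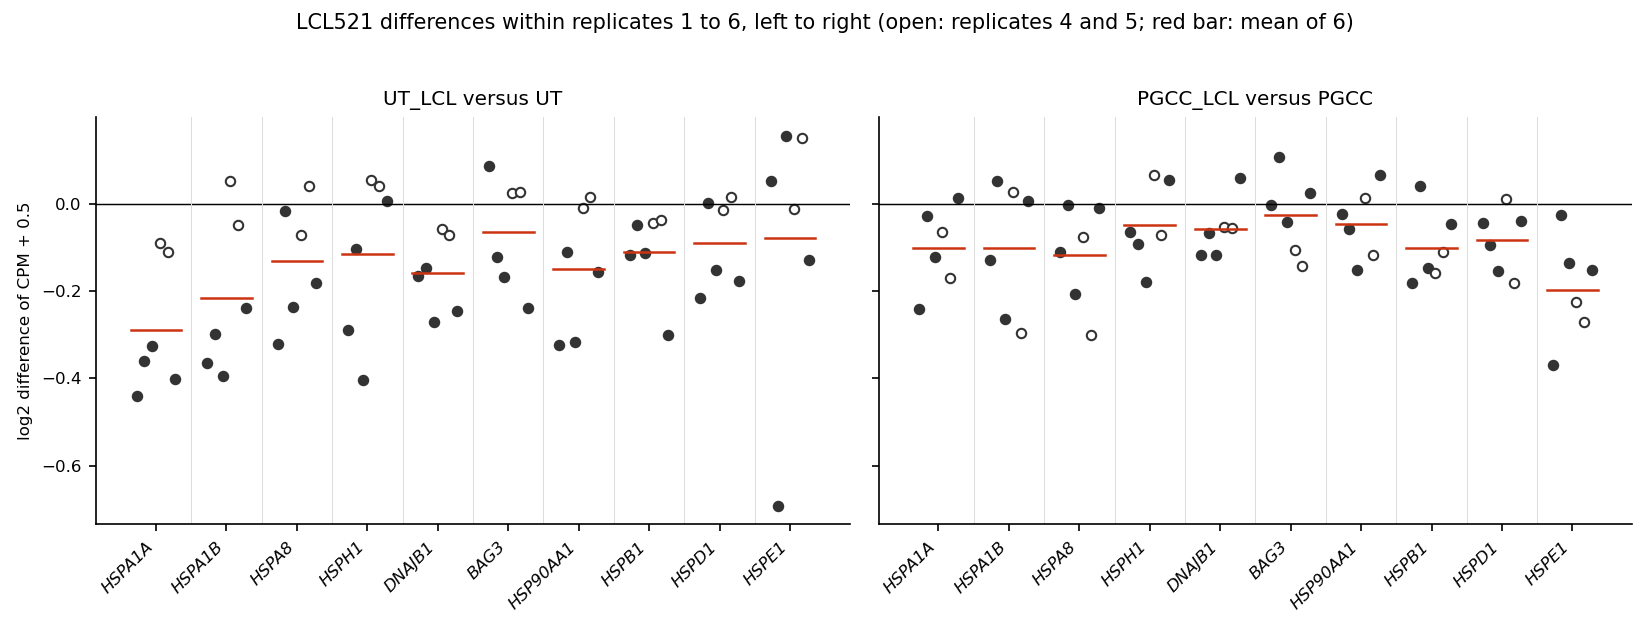
Log2 difference of CPM with LCL521 for each gene in parental cells (UT_LCL minus UT) and in PGCC (PGCC_LCL minus PGCC), with 1 point a replicate and a pseudocount of 0.5 CPM. HSPA1A, DNAJB1 and HSPB1 lie below 0 in all 6 replicates of parental cells, and HSPA8 and HSPE1 in all 6 replicates of PGCC.

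Ratios between partner genes overlapped between UT and PGCC. Per kilobase, HSPA1A and HSPA1B together made 12.2% ± 3.53 (SD, n = 6) of the level of HSPA8 in UT and 9.05% ± 1.92 in PGCC, and the ranges overlapped. HSPE1, with its uncertain counts, lay at 4.31% ± 1.46 of HSPD1 in UT and at 4.01% ± 0.680 in PGCC. The ratio of HSPA1B to HSPA1A, also per kilobase, was 1.26 ± 0.228 in UT and 1.17 ± 0.106 in PGCC. In UT it was 1.51 and 1.54 in replicates 4 and 5 and 0.981 to 1.26 in the others.

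All pairs of the 10 genes were positively correlated across libraries. The 45 pairs had Pearson correlations of log2 CPM between 0.315 and 0.986 over the 24 libraries, with a median of 0.750, and between 0.464 and 0.991 with a median of 0.860 after each condition's mean was subtracted. The 24 libraries share 6 experiments, and replicates 4 and 5 lie low for most of the genes, so these values are a description. The closest pair was HSPA1A and HSPA1B, whose reads can be split between them. Of 10656 genes, those most like HSPA8 were PREP (0.982), NOP56 (0.980) and NETO2 (0.979), and DNAJA1, another J-domain partner of HSP70, came first at 0.996 once condition means were subtracted. HSPH1 was most like DNAJA1 (0.980) over the libraries and like RBM14 (0.991) with condition means subtracted. After HSPA1B, HSPA1A was most like CHORDC1 (0.970), an HSP90 cochaperone, and BAG3 was most like ACTB (0.985) and DUSP2 (0.976). HSP90AA1 was most like LDHA (0.953) and, with condition means subtracted, like its cochaperone FKBP4 (0.971) and the chaperonin subunit TCP1 (0.962). HSPD1 was most like NUDCD1 (0.949) and HSPE1 like NDUFB2 (0.897). DNAJB1 was most like TBX3 (0.924) and HSPB1 like HMOX2 (0.933), both over the libraries. Only some of the closest genes are named here.

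The wider chaperone network was followed with 8 lists of 88 genes, of which 78 passed the filter. In PGCC against UT 9 were higher and 24 lower, 42.3% against 47.4% of all genes, with a median log2 fold change of -0.15. With the block 12 were higher and 31 lower, 55.1% against 56.2% of all genes. HSF1, the regulator itself, did not pass: it had 157 ± 16.3 CPM in UT and 148 ± 5.06 CPM in PGCC (SD, n = 6, log2 fold change -0.06, adjusted p = 0.522), and of the 5 regulators tested HSF2BP was higher (0.61, adjusted p = 0.0162) and 0 were lower. With the block HSF4 was also higher (0.59, adjusted p = 0.00367) and HSBP1 lower (-0.22, adjusted p = 0.0104). The genes that only the block or the length correction called are named here after their values were seen.

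Of 7 other HSP70 and HSP110 genes, HSPA6 was lower and the other 6 did not pass, while with the block HSPA2 was higher (1.09, adjusted p = 0.0216). HSPA6, a strictly inducible HSP70, had 21.6 ± 6.45 CPM in UT and 8.02 ± 0.739 CPM in PGCC (log2 fold change -1.40, adjusted p = 2.5e-05), and its lowest UT library, at 13.9 CPM, lay above its highest PGCC library, at 8.76 CPM. Of 8 other HSP70 cochaperones 4 were lower and 0 higher, led by BAG1 (-0.85, adjusted p = 0.000434), and the block added BAG5. Of 13 J-domain cochaperones DNAJB4 was higher (1.22, adjusted p = 0.000294) and 2 were lower, DNAJC7 the most (-0.38, adjusted p = 0.00061), and the block added DNAJB5, higher, and DNAJC2, lower. Among 13 genes of HSP90 and its cochaperones 2 were higher, led by TOMM34 (0.60), and 2 lower, led by PPID (-0.47), and the block added CHORDC1 (-0.64, adjusted p = 0.00513) and PTGES3, both lower. The 2 other small heat shock genes that passed the filter were higher, CRYAB by 1.22 (adjusted p = 0.00156) at 3.27 ± 0.634 CPM in PGCC, and HSPB11, a subunit of intraflagellar transport despite its name, by 1.10.

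Chaperonins and mitochondrial genes held calls in both directions. Of 14 genes of the cytosolic chaperonin and prefoldin 7 were lower, PFDN4 the most (-0.65, adjusted p = 0.00069), and PFDN1 was higher (0.26, adjusted p = 0.027), while the block gave 9 lower and 1 higher. Of 16 mitochondrial chaperones and proteases 8 were lower and 2 higher, with the block or without it. Of all genes 24.3% were lower and 23.1% higher without the block, and 28.3% and 27.9% with it, and nothing particular to these lists was tested. The largest falls and rises there were LONP1, a matrix protease (-1.43, adjusted p = 1.4e-05), and SPG7, an inner membrane protease (0.76, adjusted p = 1.5e-05). LONP1 went from 575 ± 170 CPM in UT to 210.1 ± 29.8 CPM in PGCC, whereas HSPD1 of the same compartment did not pass. In PGCC_LCL against UT_LCL 8 of the 78 genes were higher and 20 lower, 35.9% in all where 48.9% of all genes passed, and HSPA2 was among the higher ones (1.35, adjusted p = 0.00134). With the block 12 were higher and 24 lower, 46.2% where 56.3% of all genes passed. LCL521 gave 0 calls in either population with the block or without it. With the gene length correction added to the block, DNAJA1 (-0.17, adjusted p = 0.0463) and FKBP4 (-0.16, adjusted p = 0.0367) were lower in UT_LCL than in UT, and CCT5 (-0.12, adjusted p = 0.0396) was lower in PGCC_LCL than in PGCC.

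**Figure D5:**
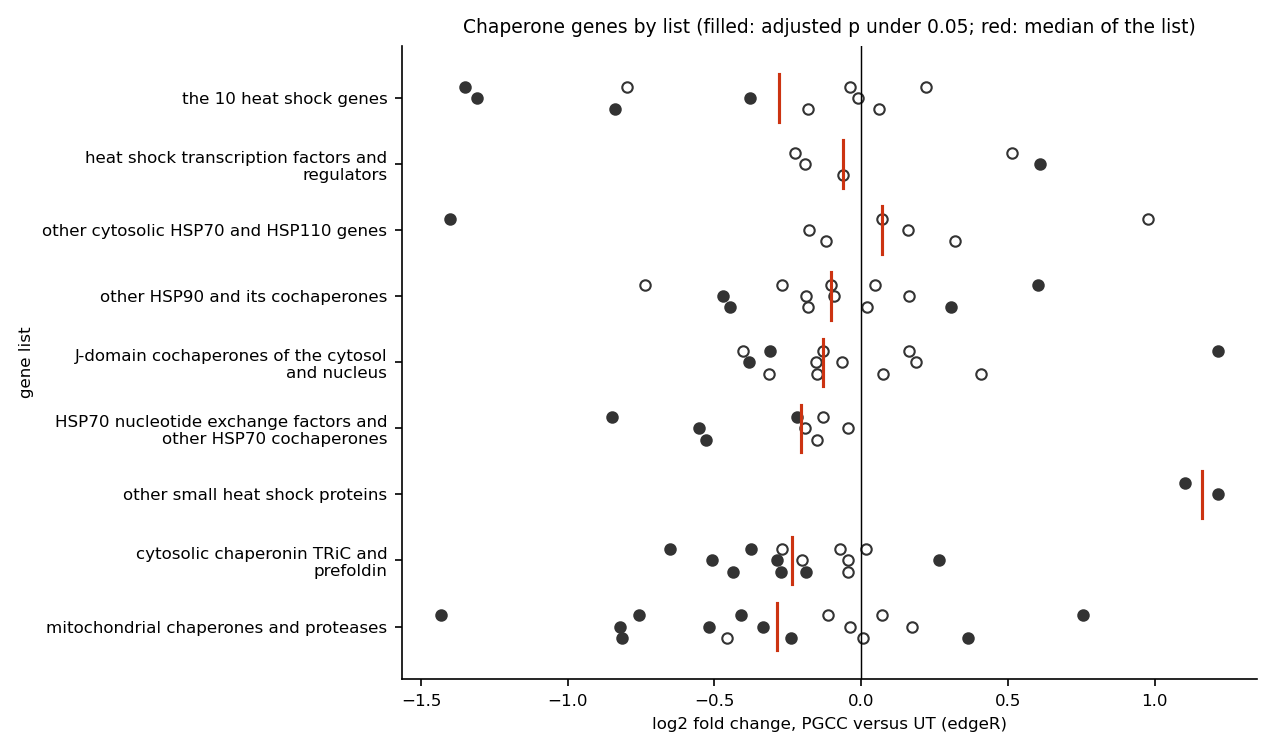
Log2 fold change of PGCC against UT for the 10 heat shock genes and for the genes of the 8 chaperone lists that passed the filter, with 1 point a gene, filled points for an adjusted p under 0.05 and a red mark for the median of each list. The median of the 10 genes lies at -0.28 and that of all genes tested at -0.03.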

How the data were processed

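RNA of PPC1 cells in 4 conditions was sequenced in 24 libraries. The deposited table holds raw read counts per gene, made by the authors. The submitters' processing notes name CASAVA, STAR, HTSeq, DESeq2 and hg19, with no versions. Whether counting used strand, and how reads shared by overlapping rows were counted, is not given in the sources used here. Deposited gene symbols, coordinates and lengths were used as listed.

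From the counts, genes were kept by edgeR's filterByExpr (minimum count 10, minimum total 15). Each comparison was fitted over its 12 libraries, and the interaction over 24, with TMM scaling and edgeR's quasi-likelihood test, and p-values were adjusted over all genes tested by the Benjamini-Hochberg method at a threshold of 0.05. CPM are counts per 1000000 scaled by TMM. Differences within replicates used log2 of CPM plus 0.5. Intervals are 95% intervals of the fit. The edgeR fit of PGCC against UT, with and without the replicate block, was tested on simulated data with known changes. The other methods and steps were not tested in this way. The analysis used R 4.3.3, edgeR 4.0.16, limma 3.58.1, DESeq2 1.42.0, Python 3.11.15, pandas 2.3.3, scipy 1.17.1 and matplotlib 3.10.9.

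Groups were taken from the labels. The series description states 6 independent experiments with the 4 conditions harvested in parallel in each, and the titles number the libraries 1 to 6. Without the block, p-values measure the spread between these experiments in 1 cell line. With it, they measure the spread of the differences within replicate numbers. Same-numbered libraries deviated together: the lowest correlation of their deviations over 14555 genes was 0.281 between PGCC and UT, 0.175 between PGCC_LCL and UT_LCL, 0.559 between UT_LCL and UT and 0.436 between PGCC_LCL and PGCC. The highest correlation between different numbers was 0.429, 0.329, 0.702 and 0.594 in the same order, with medians of -0.0956, -0.081, -0.406 and -0.24. A fit blocked on replicate number was therefore given beside results of the 10 genes whose call it changed and beside the counts of the lists.

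Alternatives were DESeq2, limma-voom, DESeq2-type and upper quartile scaling, library totals, other filters, the block with and without a gene length correction, each replicate left out, replicates 4 and 5 left out or alone, HSPA1A and HSPA1B summed, and all libraries in one fit. The block without replicates 4 and 5 and DESeq2 with the block were added after seeing the data. The 10 genes and all lists were chosen with earlier results of these data known. Genes named besides the 10 were HSF1 and the largest called rise and fall of each list between UT and PGCC. CDKN1A, ASAH1 and INSIG1 were named as checks. The 3 most correlated genes of each of the 10 were computed, and only some of them are named. ASAH1, the gene of the drug's target, had a log2 fold change of -0.40 in PGCC (edgeR, adjusted p = 0.0006). Promoter windows came from RefSeq on GRCh38.p14, and no coordinates were converted between builds.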

Additional observations from a re-analysis of the deposited data

How the results depend on the processing

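Of the log2 fold changes of the 10 genes under the alternatives, 900 kept their direction and their side of the threshold, 56 gained a call and 31 lost one in the same direction, and 58 changed sign. The cause of each change was not tested. In PGCC against UT, the number of the 10 genes called went from 4 to 1 with limma-voom, 2 with library totals and 8 with the replicate block without replicates 4 and 5, and ranged from 0 to 5 with 1 replicate left out. The number of all genes called went from 6541 to 6640, 6341 and 8881 in the same order. It ranged from 5529 to 6333 with 1 replicate left out. HSPH1 turned positive with limma-voom (0.17), library totals (0.0782), at least 10 counts in every library (0.0262), the replicate block (0.17), the block with a gene length correction (0.17) and DESeq2 with the block (0.18), and ranged from -0.12 to 0.0902 with 1 replicate left out. HSPD1 turned to 0.0541 with library totals, and HSP90AA1 to -0.0073 without replicates 4 and 5. In replicates 4 and 5 alone HSPA1A was at 0.19, HSPA8 at 0.12, HSPH1 at 0.93, BAG3 at 0.0444, HSPB1 at 0.0947, HSPD1 at 0.20 and HSPE1 at 0.44.

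In PGCC_LCL against UT_LCL, the number called went from 2 to 0 with limma-voom, 5 with no filter beyond 1 count, 1 with HSPA1A and HSPA1B summed, 5 without replicates 4 and 5, and 7 with the replicate block in each of its 4 forms (alone, with the length correction, without replicates 4 and 5, in DESeq2), and ranged from 0 to 5 with 1 replicate left out. The number of all genes called went from 6758 to 6804, 8035, 6759 and 7290 in the same order. With the 4 forms of the block it was 7780, 7910, 7991 and 7712. It ranged from 5734 to 6339 with 1 replicate left out. HSPD1 turned positive with limma-voom (0.0052), library totals (0.0462), at least 10 counts (0.0295), the block (0.0052) and the block with the length correction (0.0045), and ranged from -0.0418 to 0.0599 with 1 replicate left out. HSPH1 turned to -0.0695 without replicates 4 and 5 and to -0.0466 with the block as well. In replicates 4 and 5 alone HSPA1A was at 0.18, HSPB1 at 0.0077, HSPD1 at 0.12 and HSPE1 at 0.11.

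Between UT_LCL and UT, the block called 1 of the 10 genes and 115 of all genes, with the length correction 3 and 234, without replicates 4 and 5 1 and 3, and in DESeq2 3 and 168. In replicates 4 and 5 alone HSPA1B was at 0.0059, HSPH1 at 0.0434, BAG3 at 0.0203 and HSPE1 at 0.0695, and HSPE1 ranged from -0.21 to 0.0376 with 1 replicate left out. Between PGCC_LCL and PGCC, the count over all genes went from 1 to 6 with DESeq2, to 0 with limma-voom, without replicates 4 and 5, in these replicates alone and with all 24 libraries in one fit, to 234 with the block, 260 with the length correction, 129 without replicates 4 and 5, and 193 in DESeq2, and to between 0 and 1 with 1 replicate left out. BAG3 turned to 0.0197 without replicates 4 and 5 and to 0.0195 with the block as well, and ranged from -0.0418 to 0.0039, and HSPH1 was at 0.0025 in replicates 4 and 5 alone. The interaction turned negative in replicates 4 and 5 alone for HSPA1B (-0.11), HSPA8 (-0.16), HSPH1 (-0.0369), BAG3 (-0.13), HSP90AA1 (-0.0374), HSPB1 (-0.0753) and HSPD1 (-0.0667), and with library totals for HSPB1 (-0.0042) and HSPD1 (-0.0079). It turned to 0.0664 for HSPE1 without replicates 4 and 5 and to 0.0003 with the block as well. With 1 replicate left out it ranged from -0.0322 to 0.0379 for HSPB1, -0.018 to 0.0507 for HSPD1 and -0.28 to 0.0476 for HSPE1.

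The replicate block changed no other call of the 10 genes than those given beside the results. HSPE1, with 261 to 835 counts per library, had the widest counting error of the 10 genes.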
